A study of Mus musculus with 8 samples.

Results

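High fat diet (HFD) was compared with chow in the livers of MLL4 het mice. The comparison rests on 4 of the 8 RNA-seq libraries of the study, picked by the genotype and diet in their labels: libraries 3 and 4 from MLL4 het mice on chow, and libraries 7 and 8 from MLL4 het mice on HFD. The other 4 libraries came from wild-type livers, 2 on chow (libraries 1 and 2) and 2 on HFD (libraries 5 and 6). Mice of all groups were C57 Black, were 8 weeks old when the diets began and ate them for 8 weeks. The labels do not give the sex, the altered allele or its extent, the make-up of the HFD, or the hour and feeding state at which livers were taken. They also do not say that each library is a separate animal. P-values therefore measure a spread between libraries, shared over all 8, which may be technical. The title of the study names hepatic steatosis, and its design text asks which genes change with HFD in wild-type livers but less so in MLL4 het livers.

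MLL4, encoded by Kmt2d, adds methyl groups to lysine 4 of histone H3, mostly at enhancers, as a partner of transcription factors that include nuclear receptors. In the liver, SREBP1c and ChREBP drive the genes that turn sugar into fatty acids, SREBP2 drives cholesterol synthesis when cellular sterol is low, and a circadian clock sets the daily rhythm of many metabolic genes. Livers also hold resident macrophages, the Kupffer cells, which take up particles and debris from portal blood. Kmt2d was counted at 60.0 and 72.1 CPM on chow and 62.8 and 75.4 CPM on HFD, against 61.2 and 69.6 CPM in wild-type chow livers. CPM give a gene's count relative to the scaled library total, and values here follow the order library 3, library 4 on chow and library 7, library 8 on HFD. The het and wild-type values overlapped, and a whole-gene count is no check of an altered allele whose extent is not known. Y-linked Ddx3y, a helicase gene, lay at 74.0 and 71.9 CPM on chow and 72.5 and 76.2 CPM on HFD, and Xist was under the filter on low counts.

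Total counts were 14184486 in library 3, 14460892 in library 4, 18928676 in library 7 and 14142884 in library 8, and ran from 15509216 to 18813837 in the wild-type libraries. Of 22946 rows in the table, 12593 passed the filter and were tested. Among hepatocyte markers Alb, the major plasma protein, was at 61976 and 56802 CPM on chow and 48926 and 45577 CPM on HFD. The summed CPM of the 32 hepatocyte markers tested, Alb included, was 136137 and 134315 on chow and 114024 and 112458 on HFD. The spread between libraries, as the biological coefficient of variation, was 13.8% for het chow and 13.6% for het HFD, against 7.57% and 8.71% in the wild-type groups. The common value over all groups was 11.2%, below both het values and above both wild-type values. Tests that share the spread thus take a common value smaller than that of the het groups. On a principal component that took 14.2% of the variance, library 8 stood at -28.6 and library 3 at 20.6, the ends of that axis.

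At an adjusted p under 0.05 in edgeR's quasi-likelihood test, 380 genes differed between HFD and chow in MLL4 het livers, 3.02% of those tested. Of these, 193 were higher on HFD (1.53%) and 187 were lower (1.48%), and for each of the 380 the chow and HFD libraries did not overlap. Among the genes that rose, 76 rose at least 2-fold and 38 at least 4-fold. Among those that fell, 100 fell at least 2-fold and 26 at least 4-fold. Over all tested genes the median log2 change was -0.01, with 2811 genes (22.3%) not overlapping on the higher side and 2824 (22.4%) on the lower side. The count of 380 became 241 without library 3, 226 without library 4 and 198 without library 7. It became 146 and 144 without wild-type library 1 or 2, and such a library enters only through the filter, the scaling and the shared estimate of the spread. Of the 121 called genes named in the text, 44 stayed called whichever library was left out. The other 77 lost the call without at least 1 het library, and 52 of these also without at least 1 wild-type library. With limma-voom 16 of the 121 were not called, and with DESeq2 3 were not. The count of all calls was 105 with the 4 het libraries fitted alone.

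The same contrast in wild-type livers called 578 genes (4.59%), 299 higher (2.37%) and 279 lower (2.22%). These contrasts share no library. Genes called in both numbered 111 on the higher side, which is 57.5% of the het and 37.1% of the wild-type calls. On the lower side the shared calls were 101, or 54.0% of the het and 36.2% of the wild-type calls, and 0 genes were called in opposite directions. Genes called higher in het livers had a median log2 change of 0.85 there and 0.61 in wild-type livers. Those called lower had medians of -1.06 and -0.64. In reverse, genes called higher in wild-type livers had medians of 0.86 there and 0.564 in het livers. Genes called lower in wild-type livers had medians of -0.869 there and -0.565 in het livers. Each set was picked by its own contrast, which by itself favours a larger median in that genotype. Of the het calls, 5 on the higher side and 21 on the lower side had the other sign in wild-type livers. The interaction of genotype and diet, the test of whether the diet changes of the 2 genotypes differ, called 0 of 12593 genes (0.0%) in edgeR and 0 with limma-voom. It reached an unadjusted p under 0.05 in 900 genes (7.15%), called 29 with DESeq2, and called 14 without library 7. Its smallest adjusted p was 0.0963.

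**Figure D1:**
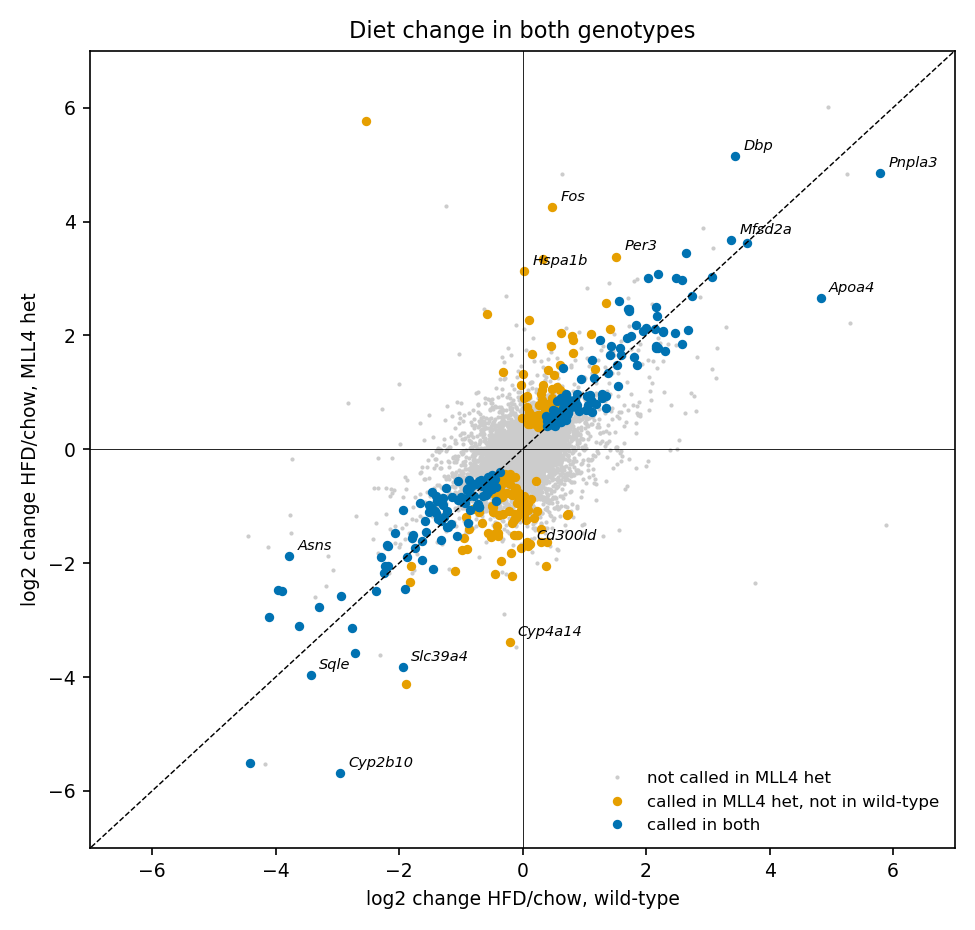
Log2 change from chow to HFD in wild-type livers (horizontal axis) and in MLL4 het livers (vertical axis) for each tested gene; blue points were called in both genotypes and orange points in het livers and not in wild-type livers. The dashed line marks equal change, 2 genes lie outside the plotted range, and Cyp2b10 lies below the line at -5.69 in het and -2.95 in wild-type livers.

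The calls among genes of fatty acid synthesis were all on the higher side. Among 13 tested regulators 4 were called higher and 0 lower, and among 27 enzymes 7 were called higher and 0 lower, with a median log2 change of 0.40 for the enzymes. Srebf1, which encodes SREBP1, was at 215 and 125 CPM on chow and 909 and 562 CPM on HFD, a 4.33-fold rise. Its log2 change was 2.11 ± 0.38 (SE, adjusted p = 0.0269). Mlxipl, the gene of ChREBP, went from 359 and 373 to 614 and 595 CPM, a smaller log2 change of 0.72 ± 0.12 (SE, adjusted p = 0.0230). Thrsp, a lipogenic helper protein also called Spot14, stood at 54.9 and 30.8 CPM on chow and 363 and 328 CPM on HFD, a log2 change of 3.01 ± 0.42 (SE, adjusted p = 0.0120). Mid1ip1, its relative that helps acetyl-CoA carboxylase polymerise, changed by 1.33 ± 0.25 (SE, adjusted p = 0.0283) on the log2 scale.

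Among the enzymes, Fasn, the fatty acid synthase, was at 295 and 180.0 CPM on chow and 1184 and 761 CPM on HFD, a log2 change of 2.03 ± 0.29 (SE, adjusted p = 0.0131). Scd1, which adds the double bond that makes oleate, reached 21776 and 20212 CPM on HFD from 6559 and 3440.0 on chow. Its log2 change was 2.07 ± 0.36 (SE, adjusted p = 0.0267), with the near-identical copies of the Scd family as a limit on how reads were split. Elovl6, which lengthens palmitate, rose from 75.7 and 44.6 to 196 and 139 CPM. Elovl2 and Fads2, of polyunsaturated fatty acid synthesis, rose by 0.82 and 0.94 on the log2 scale, with adjusted p of 0.0413 and 0.0460. As for every gene called higher, the lower HFD library was above the higher chow library. In Srebf1, Thrsp, Fasn, Scd1 and Elovl6 the chow library 4 was the lowest of the 4. Without library 4 or without library 7 the 7 enzyme calls fell to 2 and the 4 regulator calls to 1. Fasn and Thrsp stayed called whichever library was left out, while Srebf1 (adjusted p up to 0.0862), Scd1 (0.0758), Elovl6 (0.0827), Mid1ip1 (0.0911), Mlxipl (0.0746), Elovl2 (0.134) and Fads2 (0.104 without library 7) did not.

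Of 25 triglyceride genes 4 were called higher and 0 lower. Pnpla3, a lipase-like protein of lipid droplets, was nearly silent on chow at 0.780 and 0.476 CPM and reached 15.2 and 21.5 CPM on HFD, a log2 change of 4.85 ± 0.62 (SE, adjusted p = 0.00828). It stayed called whichever library was left out but not with limma-voom (adjusted p = 0.0727). G0s2, an inhibitor of the triglyceride lipase ATGL, was at 12.7 and 8.30 CPM on chow and 124 and 40.9 CPM on HFD, highest in library 7. Its log2 change was 2.98 ± 0.48 (SE, adjusted p = 0.0190), and the call ended without library 3 or 4 (adjusted p 0.0526 and 0.0750). Mgll, the monoglyceride lipase, rose from 111 and 94.3 to 229.8 and 211 CPM. Dgat2, which makes triglyceride from diglyceride, rose from 261 and 251 to 476 and 400.1 CPM, with a log2 change of 0.78 ± 0.10 (SE, adjusted p = 0.00828).

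Of 20 lipid droplet and fatty acid binding proteins, 1 was called higher, Fabp2, a fatty acid binding protein best known from the gut, at 35.6 and 33.1 CPM on chow and 162 and 129 CPM on HFD (log2 change 2.08 ± 0.12 (SE, adjusted p = 9.3e-05)). In wild-type livers 6 of the 20 were called higher. Cidec, which fuses droplets and is a PPARG target, was at 1.13 and 2.31 CPM on chow and 3.43 and 1.99 CPM on HFD, and at 2.52 and 3.48 CPM on chow and 28.7 and 13.7 CPM on HFD in wild-type livers. Its diet change was 0.68 in het (95% interval -0.56 to 1.91) and 2.81 in wild-type livers, and their difference was -2.13 with an unadjusted p of 0.0144 and an adjusted p of 0.628. Cidea, its brown-fat relative, was at 0 and 0 CPM on chow and 0.215 and 0.0711 CPM on HFD, with 8.37 and 1.20 CPM in wild-type HFD livers. Mogat1, a monoacylglycerol acyltransferase, was at 0.283 and 0.204 CPM on chow and 0.536 and 0.427 CPM on HFD, with 5.31 and 2.41 CPM in wild-type HFD livers. Cd36, a fatty acid uptake receptor, was at 43.9 and 41.1 CPM on chow and 41.7 and 14.4 CPM on HFD, lowest in library 8, while wild-type livers had 50.1 and 64.1 CPM on chow and 137 and 97.1 on HFD. Its diet change in het livers was -0.58 on the log2 scale (adjusted p = 0.488), and it was -1.56 without library 7, a called fall (adjusted p = 0.0284), and -0.03 without library 8 (adjusted p = 0.977). Its interaction p was 0.0156 before and 0.628 after adjustment. Plin2, the main droplet coat protein of hepatocytes, was at 315 and 335 CPM on chow and 443 and 406 CPM on HFD (adjusted p = 0.137). Pparg, the gene of the nuclear receptor in the title of the study, was at 9.78 and 9.32 CPM on chow and 12.98 and 11.02 CPM on HFD with a log2 change of 0.33 (95% interval -0.04 to 0.71), and the kinase gene Abl1 was at 26.8 and 26.5 CPM on chow and 28.3 and 28.2 CPM on HFD.

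Among sugar-handling genes, 9 of 38 glycolysis and fructose genes were called higher and 0 lower, and 4 of 29 genes of glucose output and glycogen were called higher and 0 lower. Slc2a2, the glucose transporter GLUT2, was at 126 and 155 CPM on chow and 290.0 and 234 CPM on HFD. Khk, which phosphorylates fructose, rose 1.95-fold, from 238 and 241 to 469 and 463 CPM, with little spread within each group and a log2 change of 0.96 ± 0.11 (SE, adjusted p = 0.00552). Tkfc, the triokinase of the same route, rose by 0.97 on the log2 scale (adjusted p = 0.0130). Pklr, the liver pyruvate kinase and a ChREBP target, was at 96.0 and 74.7 CPM on chow and 340.5 and 375 CPM on HFD, a 4.19-fold rise with a log2 change of 2.07 ± 0.14 (SE, adjusted p = 0.000285). Ldha, lactate dehydrogenase, rose from 538 and 513 to 787 and 798 CPM.

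Glycogen genes that rose were Gys2, the liver glycogen synthase, from 78.9 and 88.2 to 134 and 137 CPM, and Pygl, the phosphorylase that breaks glycogen down, from 403 and 344 to 589 and 600.2 CPM. Ugp2, which makes the sugar donor for glycogen, and Slc37a4, the glucose 6-phosphate transporter of the endoplasmic reticulum, changed by 0.58 and 0.90 on the log2 scale (adjusted p = 0.0269 and 0.00828). The 9 and 4 calls became 4 and 2 in the absence of library 7 and 5 and 2 in the absence of library 4, and the 9 became 4 in that of library 3. Khk, Pklr, Ldha, Gys2 and Slc37a4 stayed called whichever library was left out. The highest adjusted p on leaving out a library was 0.0516 for Slc2a2, 0.0513 for Tkfc, 0.0977 for Pygl and 0.107 for Ugp2.

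**Figure D2:**
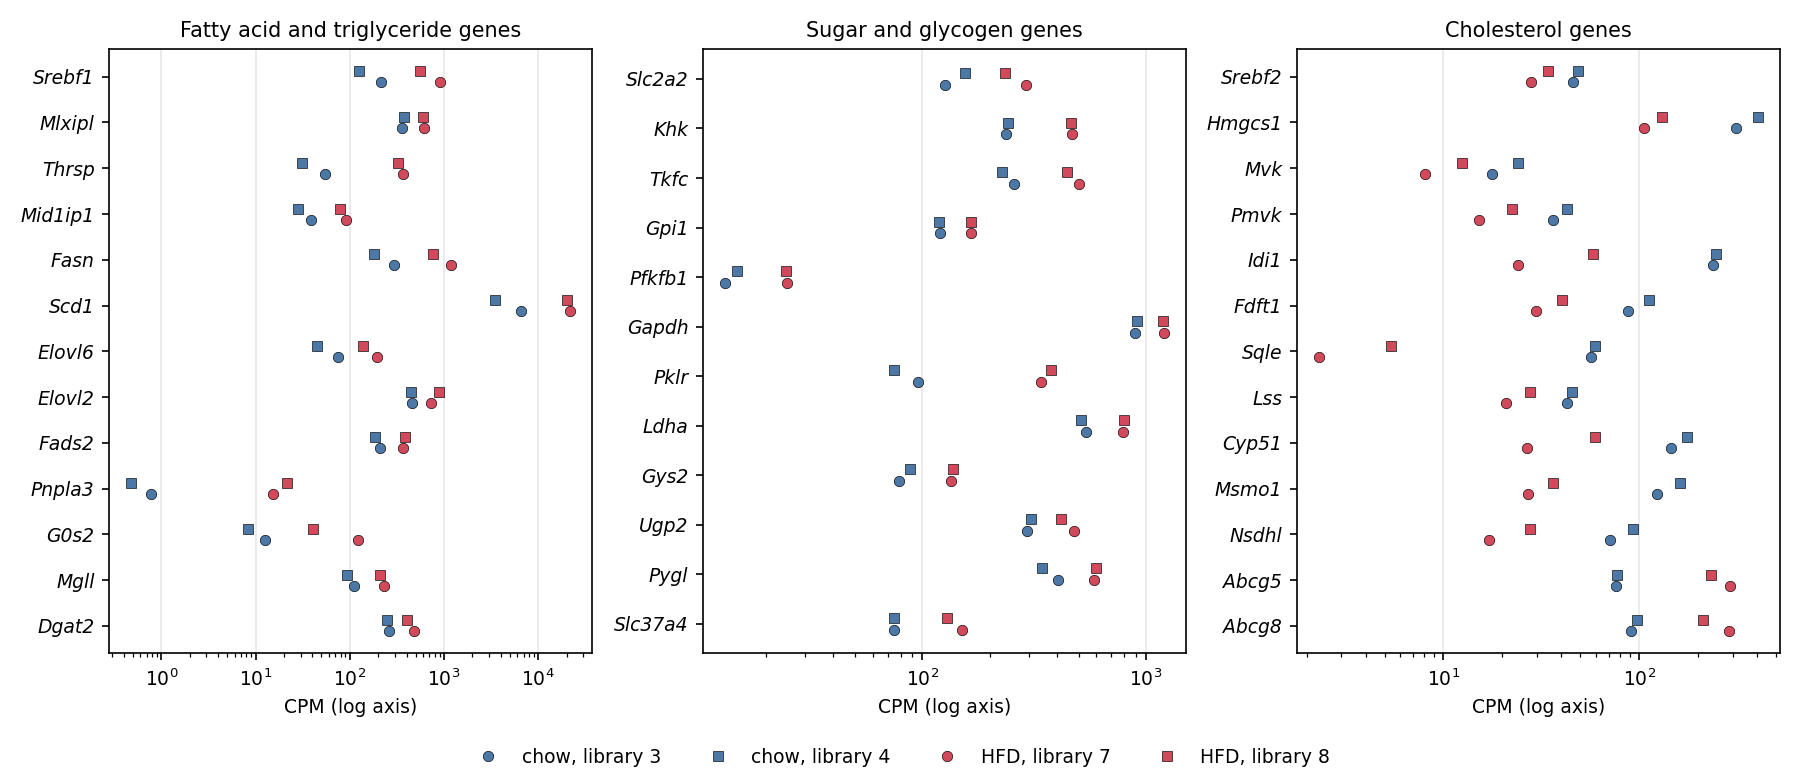
CPM (log axis) of fatty acid, sugar and cholesterol genes in the 4 MLL4 het libraries; circles are libraries 3 and 7, squares libraries 4 and 8, blue chow and red HFD. Fatty acid and sugar genes sit to the right on HFD, while the cholesterol synthesis genes from Hmgcs1 to Nsdhl sit to the left and Abcg5 and Abcg8 to the right.

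The calls among cholesterol synthesis genes were all on the lower side. Of 26 tested enzymes and SREBP2 targets, 12 were called lower and 0 higher, and the median log2 change was -0.93. On the lower side 23 did not overlap, against 22.4% of all tested genes. In wild-type livers 17 were called lower and the median was -1.06. Sqle, the squalene epoxidase, an early step of the sterol branch, had the largest drop, from 56.9 and 59.8 to 2.31 and 5.40 CPM, and fell by 3.97 ± 0.44 (SE, adjusted p = 0.00546) on the log2 scale. Hmgcs1, which makes HMG-CoA, fell from 312 and 404 to 106 and 130.2 CPM, a log2 change of -1.60 ± 0.20 (SE, adjusted p = 0.00758). Idi1, which interconverts the 2 activated isoprene units, fell from 239 and 247 to 24.0 and 57.8 CPM. Fdft1, which makes squalene, fell from 88.2 and 112 to 29.8 and 40.5 CPM. Msmo1 and Nsdhl, which strip methyl groups off the sterol ring, changed by -2.18 and -1.89 on the log2 scale (adjusted p = 0.00828 and 0.0200). In each of these 6 genes library 7 was lower than library 8, and both were below chow, as for every gene called lower. Sqle, Hmgcs1, Idi1 and Msmo1 stayed called whichever library was left out, and the 12 calls fell to 4 without library 4 and to 4 without library 7, which ended those of Fdft1 (adjusted p up to 0.0921) and Nsdhl (0.0703).

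The pair of sterol excretion genes that passed moved the other way. Abcg5 and Abcg8, which together form the pump that sends cholesterol into bile, were called higher, 2 of 14 sterol efflux genes tested. Abcg5 rose from 76.5 and 76.9 to 292 and 233 CPM and Abcg8 from 90.4 and 97.3 to 287 and 212 CPM, 3.42-fold and 2.66-fold, with adjusted p of 0.0227 and 0.0409. Both calls ended without library 3, 4 or 7, where the adjusted p was up to 0.0757 and 0.143.

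To describe promoters of falling sterol genes, the 250 bases before the start of Hmgcs1 and Idi1 are printed from RefSeq (GRCm38.p6). The windows were picked as ones that hold a marked element. The Hmgcs1 window is chr13:119690101-119690350 on the plus strand and the Idi1 window chr13:8885356-8885605 on the plus strand. Capitals mark the sterol element TCACNCCAC, searched on both strands, and the CCAAT box, which reads ATTGG on the other strand.
Hmgcs1: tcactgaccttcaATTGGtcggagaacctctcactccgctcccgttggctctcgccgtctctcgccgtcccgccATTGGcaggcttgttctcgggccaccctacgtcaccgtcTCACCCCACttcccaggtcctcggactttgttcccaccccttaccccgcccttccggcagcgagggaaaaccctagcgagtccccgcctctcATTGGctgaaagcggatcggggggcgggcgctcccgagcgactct
Idi1: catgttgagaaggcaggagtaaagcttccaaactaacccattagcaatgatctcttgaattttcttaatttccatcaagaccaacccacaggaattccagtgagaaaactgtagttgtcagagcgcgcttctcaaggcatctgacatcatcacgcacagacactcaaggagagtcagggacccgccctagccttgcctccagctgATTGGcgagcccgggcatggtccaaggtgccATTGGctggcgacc
A CCAAT box was present in 10 of the 10 called sterol genes that have a window in the table (12 were called), against 37.49% of the 27025 genes with a window. It was also present in 17 of the 18 tested sterol genes with a window, called or not, and in 8 of 10 called clock genes. The box is thus not particular to the falling sterol genes. The sterol element was present in 1 of the 10 called sterol genes, Hmgcs1, against 1.22% of all genes. A match of letters is a description of the window and not a bound site, and other spellings of the sterol element were not searched.

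Among genes that clear drugs and toxins, more were called lower than higher, and most did not pass. Of 52 cytochrome P450 genes 6 were called lower and 1 higher, of 27 other phase I genes 6 lower and 1 higher, and of 47 conjugating enzymes 14 lower and 2 higher. Cyp2b10, the classic target of the nuclear receptor CAR, was at 25.1 and 20.1 CPM on chow and 0.376 and 0.498 CPM on HFD, 51.7-fold lower, with a log2 change of -5.69 ± 0.22 (SE, adjusted p = 7.5e-06). In wild-type livers it went from 23.0 and 23.7 to 2.89 and 3.12 CPM. Chow values overlapped between genotypes, and both het HFD values lay below both wild-type HFD values. The difference between the diet changes was -2.74 on the log2 scale (adjusted p = 0.0963 in edgeR), and it was called with DESeq2 (adjusted p = 0.000132) and with no count filter (adjusted p = 0.00449). This gene and Slc39a4 are singled out because they had the smallest interaction p, seen after the fit.

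Cyp2c55, another gene that CAR and its relative PXR induce, fell from 12.5 and 13.2 to 2.04 and 2.56 CPM. Cyp2c29 and Cyp1a2, abundant drug-metabolising enzymes, fell from 2918 and 2589 to 1511 and 1315 CPM and from 571 and 657 to 354 and 342 CPM. Cyp2d40 was the one P450 called higher, from 40.2 and 40.1 to 104 and 86.9 CPM. Glutathione transferases made up 8 of the 14 conjugating enzymes called lower. Gstm1 fell from 1698 and 1742 to 688 and 893 CPM, Gstm3 by 2.05 ± 0.23 (SE, adjusted p = 0.00552) on the log2 scale, and Gsta2 from 19.9 and 17.1 to 5.53 and 6.04 CPM. Ugdh, which makes the donor for glucuronidation, was close to 199 and 197 CPM on chow and 96.7 and 102 on HFD, a log2 change of -0.99 ± 0.10 (SE, adjusted p = 0.00384). Ugt2b35, one of the glucuronyl transferases, fell by 0.81 ± 0.11 (SE, adjusted p = 0.00921).

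These families hold near-identical copies, so how the authors' counting split reads among members is uncertain. Among esterases and oxidases, Ces2a (log2 change -0.57), Ces1b (-0.68), Aox1 (-0.67) and Ephx1, the microsomal epoxide hydrolase (-0.59), fell, while Ephx2, the soluble one, rose by 0.42 ± 0.09 (SE, adjusted p = 0.0497). Those 5 calls each ended on leaving out a library, with adjusted p up to 0.116, 0.144, 0.0572, 0.0749 and 0.163, and the 6 other phase I calls fell to 1 without library 8. Without library 7 the P450 calls on the lower side rose from 6 to 13 and the conjugation calls fell from 14 to 7. Cyp2b10, Cyp2c55, Cyp2c29, Cyp1a2, Cyp2d40, Gstm1, Gstm3, Gsta2, Ugdh and Ugt2b35 stayed called whichever library was left out.

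Lipoprotein and bile genes held calls in both directions. Of 22 apolipoprotein and assembly genes 3 were called higher and 2 lower in edgeR, and 6 and 2 with DESeq2. Their median log2 change was 0.28. Of the 22, 16 did not overlap on the higher side and 2 on the lower side, against 22.3% and 22.4% of all tested genes. An unadjusted p under 0.05 in edgeR was found in 15, against 18.2% of all tested genes. Apoa4, a chylomicron and VLDL protein, was at 99.6 and 42.9 CPM on chow and 471 and 427 CPM on HFD, a log2 change of 2.66 ± 0.36 (SE, adjusted p = 0.00921), while wild-type livers went from 31.5 and 34.8 to 1159 and 723 CPM. Its interaction p was 0.00164 before and 0.580 after adjustment. Apoc2, the activator of lipoprotein lipase, rose from 94.96 and 104 to 174 and 157 CPM. Angptl8, an inhibitor of that lipase, was at 14.5 and 7.01 CPM on chow and 59.4 and 27.9 CPM on HFD. Its call was lost without library 4 or 7, without wild-type library 1, 2, 5 or 6, and with limma-voom (adjusted p = 0.0508). Apom, a small HDL protein, fell from 153 and 159 to 85.6 and 106 CPM. Sort1, a sorting receptor of the VLDL route, fell from 34.2 and 33.7 to 19.4 and 21.3 CPM, a call that narrowly ended without library 7 (adjusted p = 0.0507).

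Of 19 bile acid genes 1 was called higher and 1 lower. Cyp7b1, of the alternative bile acid route, fell from 391 and 466 to 195 and 239.9 CPM, and Cyp46a1, a cholesterol 24-hydroxylase, lay at 0.425 and 0.204 CPM on chow and 2.09 and 1.78 CPM on HFD. Both calls ended without library 4 or 7, and that of Cyp7b1 also without library 3. Among 21 transporters, Slco2a1, a prostaglandin carrier, fell from 77.7 and 60.1 to 29.4 and 27.8 CPM and stayed called throughout. Slc22a7, an organic anion transporter, was at 6.38 and 13.8 CPM on chow and 39.1 and 31.9 CPM on HFD, and in wild-type livers at 27.5 and 30.8 CPM on chow. Its call ended without library 7 (adjusted p = 0.0662).

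Of 49 mitochondrial and peroxisomal genes of fatty acid oxidation 1 was called higher and 1 lower, near the shares over all tested genes (1.53% and 1.48%). The median log2 change was 0.08, where wild-type livers had 10 called higher and a median of 0.24. In het livers 17 of the 49 had an unadjusted p under 0.05, against 18.2% of all tested genes. On the higher side 19 did not overlap and on the lower side 8, against 22.3% and 22.4% of all tested genes. DESeq2 called 4 higher and 1 lower. Ppara, the receptor that drives this program, was at 169 and 155 CPM on chow and 351 and 242 CPM on HFD (adjusted p = 0.0923). Crot, a peroxisomal carnitine acyltransferase, fell from 911 and 1045 to 536 and 619.9 CPM, and Acaa1b, a peroxisomal thiolase with a near-identical copy, rose from 970.2 and 1013 to 1814 and 1398 CPM. Both calls ended without library 4 or 7. That of Acaa1b also ended without library 3 and without wild-type library 1, 2, 5 or 6.

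Among 18 omega-oxidation and thioesterase genes, 3 were called lower, all of the Cyp4a family of fatty acid omega-hydroxylases, which hold near-identical copies. Cyp4a14 was at 149 and 724 CPM on chow and 36.2 and 47.4 CPM on HFD, and its neighbours Cyp4a10 and Cyp4a31 were at 218 and 519.6 and at 13.8 and 36.1 CPM on chow. Library 4 was the high one in each, at 724 CPM for Cyp4a14 against 149 in library 3, and the wild-type libraries were at 309 and 224 CPM on chow and 263 and 197 on HFD. The log2 change of Cyp4a14 was -3.39 ± 0.61 (SE, adjusted p = 0.0269), and without library 4 it was -1.84 (adjusted p = 0.0198). Without library 4 the calls of Cyp4a10 and Cyp4a31 ended (adjusted p 0.0738 and 0.105). Leaving out library 7 or library 8 instead ended the calls of all 3 genes, with adjusted p up to 0.115, 0.145 and 0.175.

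Clock genes differed by limb. In the clock, CLOCK and BMAL1 switch on the Per, Cry and Nr1d genes, whose products shut the loop and set the level of output factors such as DBP. Among 14 genes of the repressing limb 6 were called higher and 0 lower, with a median log2 change of 1.21, and among 20 output genes 6 were called higher and 0 lower. Of the 14, 10 did not overlap on the higher side and 2 on the lower side. Of the 20, these were 10 and 3. Over all tested genes the shares were 22.3% and 22.4%, and 18.2% had an unadjusted p under 0.05 in edgeR. Among 5 genes of the activating limb 0 were called in edgeR and with limma-voom and 2 (lower) with DESeq2, 4 had an unadjusted p under 0.05, and their median was -0.45. Per1, Per2 and Per3 rose: Per2 from 10.2 and 4.97 to 37.8 and 28.0 CPM, Per3 from 1.77 and 1.02 to 16.0 and 13.1 CPM and Per1 from 4.68 and 7.14 to 17.4 and 20.3 CPM. Bhlhe40, the repressor DEC1, rose 5.36-fold, from 32.5 and 25.2 to 177 and 132 CPM, with a log2 change of 2.42 ± 0.25 (SE, adjusted p = 0.00462). Nr1d1 and Nr1d2, the REV-ERB receptors, rose by 1.39 and 1.04 on the log2 scale (adjusted p = 0.0259 and 0.0259). Arntl, the gene of BMAL1, was at 26.4 and 29.0 CPM on chow and 10.5 and 17.2 CPM on HFD (adjusted p = 0.0693), and Clock at 77.0 and 62.3 CPM on chow and 52.3 and 49.4 CPM on HFD (adjusted p = 0.0696). Arntl was called lower without library 8 (adjusted p = 0.0271) and Clock without library 4 (adjusted p = 0.0342).

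Output genes showed the widest range. Dbp was almost off on chow, at 0.354 and 0.408 CPM, and stood at 16.4 and 11.02 CPM on HFD, a log2 change of 5.15 ± 0.83 (SE, adjusted p = 0.0196). Its PAR-bZIP relatives Tef and Hlf rose from 23.2 and 27.4 to 117 and 85.6 CPM and from 28.8 and 27.0 to 53.4 and 37.3 CPM. Noct, a rhythmic phosphatase also called nocturnin, rose from 10.3 and 5.44 to 32.1 and 32.7 CPM. Rgs16, a regulator of G protein signals, was at 1.63 and 2.52 CPM on chow and 37.3 and 13.4 CPM on HFD, with library 7 above library 8. Wild-type livers showed changes of 3.45 in Dbp, 0.79 in Tef, 0.15 in Per1 and 3.64 in Rgs16. The interaction for Tef and Per1 had unadjusted p of 0.00430 and 0.00353 and adjusted p of 0.588 and 0.588, and both were called with DESeq2 (adjusted p = 0.0259 and 0.0290). With no hour of collection in the labels, the hour and the diet cannot be told apart for these genes. Bhlhe40, Per2 and Tef stayed called whichever library was left out, and the 6 output calls fell to 3 with limma-voom, where Dbp (0.0864), Rgs16 (0.112) and Hlf (0.0586) lost theirs. They fell to 2 without library 3 or 4, the 6 repressor calls to 3 without library 3 and to 4 without library 4 or 7. The highest adjusted p was 0.0778 for Dbp, 0.0851 for Per1, 0.0558 for Per3, 0.0831 for Nr1d1, 0.0824 for Nr1d2, 0.123 for Hlf, 0.0635 for Noct and 0.112 for Rgs16.

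For 3 of these genes, windows were picked that hold an element that clock proteins bind. They are printed from RefSeq (GRCm38.p6) as the 250 bases before the start: Per1 at chr11:69098699-69098948 on the plus strand, Per3 at chr4:151044666-151044915 on the minus strand and Tef at chr15:81802423-81802672 on the plus strand. Capitals mark the E-box CACGTG, which CLOCK and BMAL1 bind, and the D-box TTATGNAA, which DBP, TEF and HLF bind, both searched on both strands.
Per1: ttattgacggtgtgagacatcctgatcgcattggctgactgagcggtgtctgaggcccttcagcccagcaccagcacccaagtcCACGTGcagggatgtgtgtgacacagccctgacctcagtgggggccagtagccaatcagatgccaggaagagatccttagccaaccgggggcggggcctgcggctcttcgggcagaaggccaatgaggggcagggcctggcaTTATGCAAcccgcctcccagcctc
Per3: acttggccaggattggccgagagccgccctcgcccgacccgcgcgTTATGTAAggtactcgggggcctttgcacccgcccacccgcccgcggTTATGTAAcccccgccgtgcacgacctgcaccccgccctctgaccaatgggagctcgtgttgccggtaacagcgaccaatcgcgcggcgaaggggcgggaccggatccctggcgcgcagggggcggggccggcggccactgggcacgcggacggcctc
Tef: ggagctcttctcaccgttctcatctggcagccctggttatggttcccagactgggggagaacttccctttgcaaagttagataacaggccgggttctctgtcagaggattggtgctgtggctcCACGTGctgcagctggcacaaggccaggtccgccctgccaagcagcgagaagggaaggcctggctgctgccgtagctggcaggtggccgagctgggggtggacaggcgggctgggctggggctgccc
The D-box was present in 4 of the 10 called clock genes with a window (12 were called), against 3.63% of all genes with a window, and the E-box in 2 of 10, against 6.86%. Over all tested genes of the clock lists with a window, called or not, the D-box was in 4 of 32 and the E-box in 8 of 32. The cyclic AMP element TGACGTCA was present in 1 of the 10 called clock genes, Hlf, against 1.77% of all genes with a window.

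**Figure D3:**
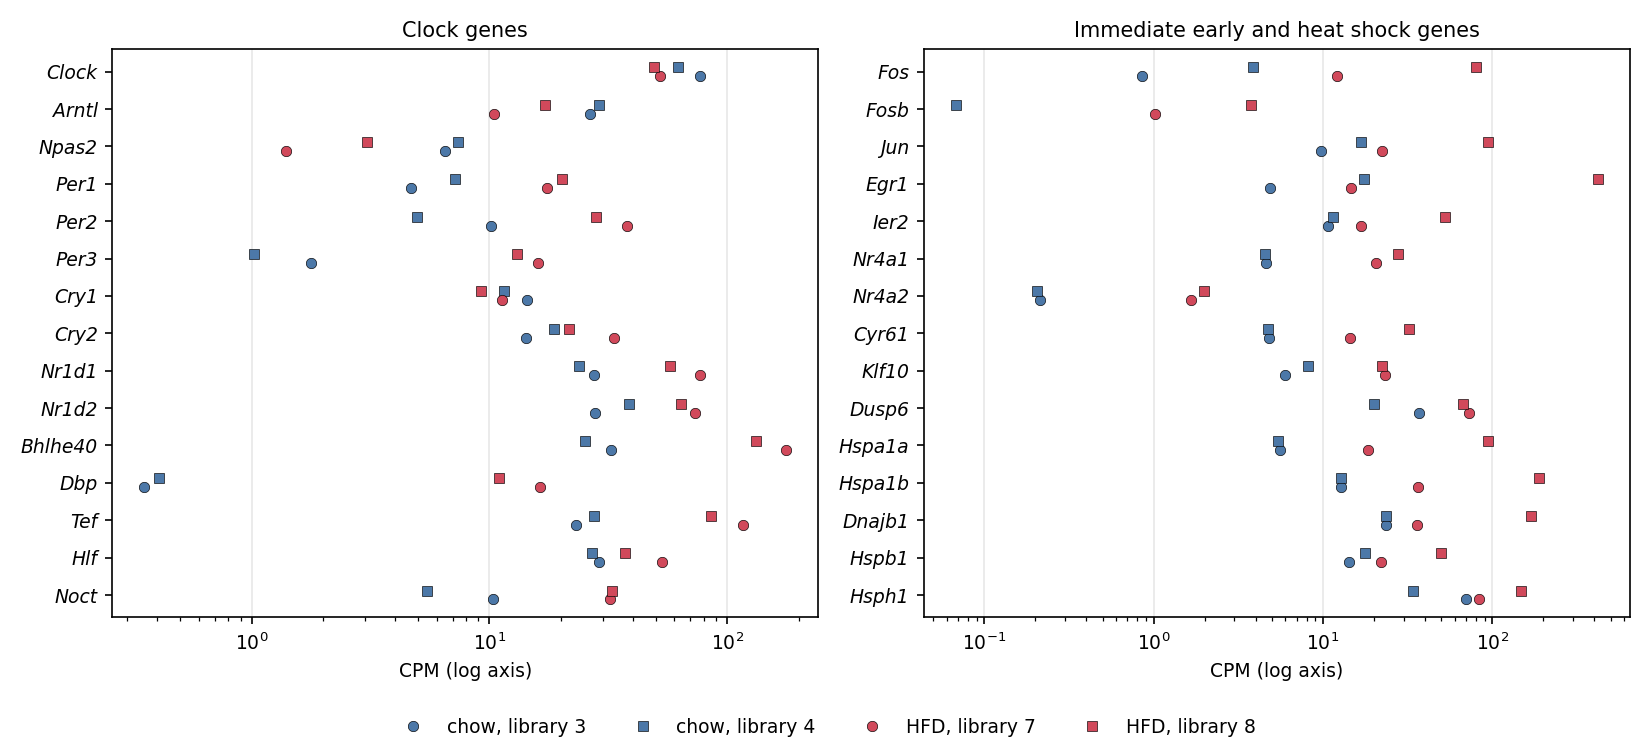
CPM (log axis) of clock genes (left) and of immediate early and heat shock genes (right) in the 4 MLL4 het libraries, with chow in blue and HFD in red; the Fosb value of library 3 is 0 and cannot be drawn. Per1, Per2, Per3, Nr1d1, Nr1d2, Bhlhe40, Dbp, Tef, Hlf and Noct sit to the right in both HFD libraries. On the right-hand panel library 8 (red square) stands apart for Egr1, Fos and Hspa1b.

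Part of the immediate early and heat shock genes were called higher on HFD, several of them with library 8 far above library 7. Of 34 immediate early genes 7 were called higher and 1 lower, with a median log2 change of 0.78, and of 29 cytosolic chaperone genes 4 were called higher and 0 lower. Fos, which is switched on within minutes of a stimulus, was at 0.850 and 3.88 CPM on chow and 12.02 and 80.4 CPM on HFD, and its partner Fosb at 0 and 0.0680 CPM on chow and 1.02 and 3.77 CPM on HFD. Hspa1a and Hspa1b, near-identical heat shock 70 genes whose reads cannot be cleanly split, were at 5.60 and 5.44 CPM on chow and 18.5 and 94.4 CPM on HFD and at 12.7 and 12.7 CPM on chow and 36.3 and 188 CPM on HFD. In each of these 4 genes library 8 was several times above library 7. Nr4a1 and Nr4a2, orphan nuclear receptors of the same early class, were more even between HFD libraries, at 4.61 and 4.56 CPM on chow and 20.4 and 27.7 CPM on HFD and at 0.213 and 0.204 CPM on chow and 1.66 and 1.99 CPM on HFD. Cyr61, a matricellular growth signal, was at 4.82 and 4.76 CPM on chow and 14.4 and 32.3 CPM on HFD, and Klf10, a Krüppel-like repressor, at 5.95 and 8.16 CPM on chow and 23.3 and 22.3 CPM on HFD.

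In wild-type livers Hspa1b was at 11.9 and 9.68 CPM on chow and 12.6 and 9.40 on HFD, and Fos at 0.882 and 1.16 and 1.62 and 1.26. Nr4a1 on chow was lower in het livers than in the wild-type libraries, which had 28.9 and 21.4 CPM on chow and 8.77 and 24.7 on HFD. Without library 8 the 7 immediate early calls on the higher side fell to 2 and the 4 chaperone calls to 3. Without library 4 they were 0 and 0, and without library 3 they were 1 and 7. Without library 7 they rose to 9 and 8. DESeq2 called 13 and 12 on the higher side and limma-voom 3 and 2. The log2 change of Fos was 4.26 ± 0.89 (SE, adjusted p = 0.0424) and became 2.33 without library 8 (adjusted p = 0.0612), and that of Hspa1b was 3.14 ± 0.63 (SE, adjusted p = 0.0370) and became 1.52 (adjusted p = 0.00741). Without library 3 the calls of Fos, Fosb, Hspa1a, Hspa1b, Nr4a1, Nr4a2, Cyr61 and Klf10 all ended, with adjusted p from 0.0659 for Cyr61 to 0.157 for Fos. They also ended without library 4, with adjusted p from 0.0690 for Cyr61 to 0.110 for Hspa1b. Those of Fos, Hspa1a and Hspa1b ended as well without any 1 of the 4 wild-type libraries, and the chaperone count was then 0. With limma-voom the adjusted p was 0.207 for Fos, 0.135 for Hspa1a and 0.104 for Hspa1b. Klf6 was the early gene called lower, to 6.01 and 5.33 CPM on HFD, with a log2 change of -0.78 ± 0.15 (SE, adjusted p = 0.0296), and the call ended on leaving out any of the 4 het libraries (adjusted p up to 0.101).

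Kupffer cell genes held calls on the lower side. Of 22 markers 8 were called lower and 0 higher, and the median log2 change was -0.84. On the lower side 18 did not overlap and on the higher side 1, against 22.4% and 22.3% of all tested genes. Clec4f, a lectin found on Kupffer cells, was at 123 and 109.6 CPM on chow and 74.9 and 50.3 CPM on HFD, and Vsig4, their complement receptor, at 36.4 and 27.7 CPM on chow and 18.7 and 11.1 CPM on HFD. Csf1r, the receptor for the macrophage growth factor, was at 55.3 and 43.1 CPM on chow and 26.6 and 13.3 CPM on HFD. The C1q genes, made in liver by macrophages, moved with them: C1qa was at 39.0 and 41.0 CPM on chow and 26.2 and 19.6 CPM on HFD, C1qb at 42.4 and 40.3 CPM on chow and 27.2 and 17.7 CPM on HFD and C1qc at 36.2 and 35.4 CPM on chow and 24.6 and 16.1 CPM on HFD. Hpgd, which breaks down prostaglandins and is also made by other cells, was at 81.9 and 76.8 CPM on chow and 53.5 and 40.0 CPM on HFD. Log2 changes of the 6 Kupffer genes other than Hpgd ran from -1.29 for Csf1r to -0.80 for C1qa. Among 23 other macrophage and myeloid genes 3 were called lower and 0 higher, with a median of -0.83: Lyz2, lysozyme, at 70.7 and 66.7 CPM on chow and 33.3 and 15.9 CPM on HFD, Cd68 at 7.72 and 7.76 CPM on chow and 4.24 and 3.06 CPM on HFD and Ctss, cathepsin S, at 36.4 and 29.4 CPM on chow and 19.7 and 14.4 CPM on HFD.

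In wild-type livers the medians of the same lists were -0.06 and -0.10, with 1 of the 22 and 0 of the 23 called lower. Clec4f lay at 53.6 and 47.6 CPM on wild-type chow and 49.5 and 50.2 on wild-type HFD, and Csf1r at 21.7 and 17.8 and 17.7 and 17.3. For both genes the het chow libraries held the high values, above each wild-type library, and the het HFD libraries lay closer to wild-type. The interaction had an unadjusted p under 0.05 in 10 of the 22 and 10 of the 23, against 7.15% of all tested genes, and an adjusted p of 0.588 for Clec4f. The summed CPM of the 22 markers was 1033 and 853 on het chow, 690.4 and 549 on het HFD, and 523 to 562 in the wild-type libraries. In bulk tissue, fewer macrophages and less RNA per macrophage cannot be told apart.

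The macrophage calls lean on the spread that the model shares between groups. Both counts were 0 with the 4 het libraries fitted alone, 0 without library 3, and 0 without wild-type library 1 or 2. Without library 8 they were 2 and 1, and without library 7 they were 9 and 4. The highest adjusted p on leaving out a library was 0.0903 for Clec4f, 0.147 for Vsig4, 0.138 for Csf1r, 0.0702 for C1qa, 0.123 for C1qb, 0.1197 for C1qc, 0.0903 for Hpgd, 0.0747 for Lyz2, 0.0882 for Cd68 and 0.0987 for Ctss. Of 32 hepatocyte markers 1 was called higher and 2 lower in edgeR. Of these 32, 5 did not overlap on the higher side and 15 on the lower side, against 22.3% and 22.4% of all tested genes. Of 20 periportal hepatocyte genes 0 were called higher and 3 lower, with 4 and 13 not overlapping. The lists of other liver cells held at most 1 call each in edgeR. Of 28 sinusoidal endothelial genes 0 were called in edgeR, DESeq2 or limma-voom and 1 had an unadjusted p under 0.05 (median -0.13). Of 34 stellate and matrix genes 1 was called lower, the neurotrophin receptor gene Ngfr at 5.17 and 4.56 CPM on chow and 2.58 and 2.70 CPM on HFD, a call that ended on leaving out any library (adjusted p up to 0.155). Of 7 lymphocyte, 9 bile duct, 7 fat cell, 3 muscle and 1 pancreas markers tested, 0 were called in edgeR and with limma-voom and 1 with DESeq2 (a fat cell marker). Of these markers 7 had an unadjusted p under 0.05 in edgeR, against 18.2% of all tested genes. These lists were not all flat. Of the 7 fat cell markers 6 did not overlap on the higher side and 0 on the lower side (median 0.495). Of the 9 bile duct markers 0 did not overlap on the higher side and 5 on the lower side (median -0.42). Of 4 red blood cell rows 0 were called in edgeR, 2 with DESeq2 and 3 had an unadjusted p under 0.05. The row of the alpha globin genes was at 116 and 134 CPM on chow and 203 and 223 CPM on HFD, while wild-type livers went from 145 and 99.2 to 483 and 359 CPM. Its interaction p in edgeR was 0.00472 before and 0.588 after adjustment. DESeq2 called the interaction of this row (adjusted p = 0.0491) and that of the beta globin row (adjusted p = 0.00145).

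**Figure D4:**
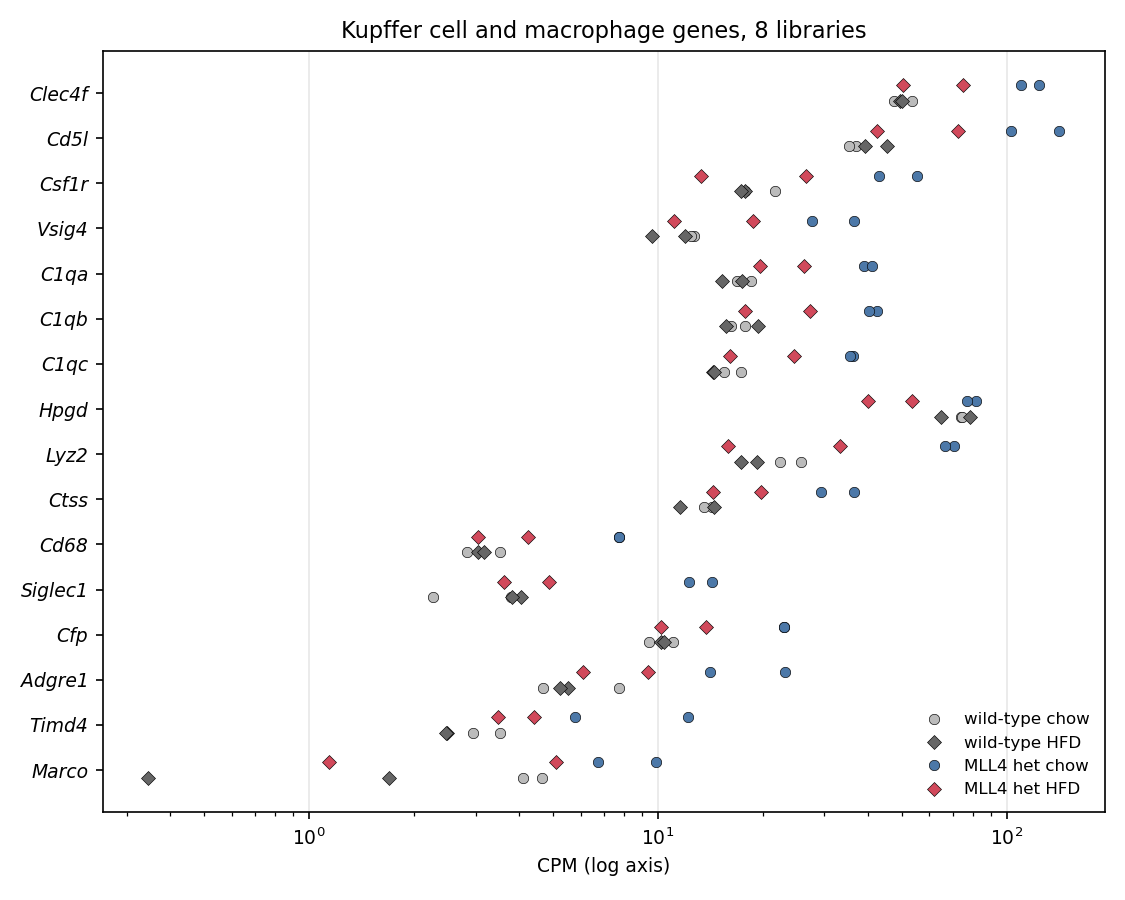
CPM (log axis) of Kupffer cell and macrophage genes in all 8 libraries, with wild-type livers in grey and MLL4 het livers in blue (chow) and red (HFD). The blue points of het chow lie to the right of the other 3 groups in most rows, and the red points lie between them and the wild-type points or among the latter.

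Part of the acute phase genes, a list that holds plasma protein genes and also receptor and signalling genes such as Il6ra and Stat3, were called lower. Of 35 acute phase genes 8 were called lower and 0 higher, with a median log2 change of -0.43, and 11 were called lower in wild-type livers. Saa3, a serum amyloid, fell from 8.36 and 9.25 to 2.52 and 2.92 CPM, and Saa1 from 51.6 and 40.1 to 26.8 and 20.4 CPM. Orm1 and Orm2, the acid glycoproteins, fell by 0.69 ± 0.12 (SE, adjusted p = 0.0230) and 0.83 ± 0.13 (SE, adjusted p = 0.0170) on the log2 scale. Hpx, which binds free heme, fell from 2934 and 2977 to 1989.8 and 2088 CPM. Of 44 complement and coagulation genes (median -0.11, 14 with a log2 change above 0) 6 were called lower and 0 higher, 4 of them the C1q genes and Cfp, which the macrophage lists or their cells share, and the other two C3 and Hc. C3, the hub of the complement cascade, was at 6579.6 and 6616 CPM on chow and 3626 and 3733 CPM on HFD, a log2 change of -0.84 ± 0.13 (SE, adjusted p = 0.0152), and Hc, which encodes C5, at 1302 and 1173 CPM on chow and 854 and 904 CPM on HFD. Serum amyloid and orosomucoid genes hold near-identical copies. Saa3 stayed called whichever library was left out. Dropping library 3, 4 or 8 took the 6 complement calls to 1, 2 and 2. Dropping library 4, 7 or 8 took the 8 acute phase calls to 3, 3 and 2. The highest adjusted p was 0.105 for Saa1, 0.0777 for Orm1, 0.0524 for Orm2, 0.113 for Hpx, 0.0567 for C3 and 0.114 for Hc.

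Hormone-linked genes changed in both directions. Of 37 growth hormone, IGF and secreted factor genes 2 were called higher and 3 lower. Of 28 insulin signalling genes 0 were called in edgeR and with limma-voom and 1 with DESeq2. Of the 28, 8 had an unadjusted p under 0.05 in edgeR, against 18.2% of all tested genes. Prlr, the prolactin receptor, fell from 97.4 and 97.8 to 45.4 and 34.1 CPM, and Enho, which encodes the secreted peptide adropin, from 7.02 and 11.7 to 0.912 and 2.63 CPM. Inhbe, a hepatokine of the activin family, was at 22.3 and 17.3 CPM on chow and 91.8 and 38.2 CPM on HFD, highest in library 7. Serpina12, the adipokine vaspin, rose from 33.8 and 16.3 to 96.8 and 92.0 CPM. Among sex-biased liver genes 1 of 22 male-biased was called higher and 4 lower, and 3 of 22 female-biased were called lower. Serpina1e, a male-biased antitrypsin with near-identical copies, was at 9617 and 9863 CPM on chow and 4529 and 4813 CPM on HFD. The calls of Enho and Serpina1e ended without library 4 or 7 and without wild-type library 1 or 2. That of Serpina1e also ended without library 3 or 8. Inhbe lost its call without library 3 or 4, without wild-type library 1, 2, 5 or 6, and with limma-voom (adjusted p = 0.0615). Prlr and Serpina12 stayed called whichever library was left out.

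Several of the largest changes lay outside these groups. Mfsd2a, the carrier that brings lysophosphatidylcholine into cells, rose 12.7-fold, from 5.74 and 7.35 to 81.2 and 86.0 CPM, a log2 change of 3.67 ± 0.13 (SE, adjusted p = 7.5e-06). Hcn3, a cyclic nucleotide-gated channel gene, rose from 1.98 and 2.72 to 23.2 and 28.6 CPM. Slc39a4, the zinc importer ZIP4, fell from 36.1 and 28.8 to 2.52 and 1.99 CPM, a log2 change of -3.82 ± 0.17 (SE, adjusted p = 2.1e-05), and from 64.1 and 57.4 to 16.4 and 15.3 CPM in wild-type livers. Its interaction was -1.89 (adjusted p = 0.0963 in edgeR and 4.3e-06 in DESeq2). It was the 1 zinc gene of 21 called. All 3 stayed called whichever library was left out.

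The imprinted non-coding RNAs Meg3 and Rian, neighbours in one cluster, fell together. Rian was at 5.95 and 10.3 CPM on chow and 1.39 and 0.640 CPM on HFD, and the row that holds Meg3 together with microRNA hosts at 12.3 and 30.1 CPM on chow and 3.33 and 1.42 CPM on HFD, with log2 changes of -2.94 ± 0.41 (SE, adjusted p = 0.0116) and -3.10 ± 0.47 (SE, adjusted p = 0.0152). They were the 2 called lower among 18 imprinted genes tested, of which 0 were called higher and 9 had a log2 change above 0. Cd207, a lectin of Langerhans cells also found on other myeloid cells, fell from 2.76 and 3.20 to 0.268 and 0.213 CPM and is a low-count gene. Meg3, Rian and Cd207 stayed called whichever library was left out. Clec2h, a C-type lectin gene, fell from 8.58 and 14.2 to 0.858 and 3.41 CPM, and Slc13a2, a citrate and dicarboxylate carrier, from 2.69 and 1.77 to 0.161 and 0.356 CPM. Cxcl13, a B cell chemokine, was at 4.61 and 4.15 CPM on chow and 1.34 and 0.284 CPM on HFD, and Cd300e, a myeloid receptor, at 3.83 and 2.72 CPM on chow and 0.912 and 0.427 CPM on HFD. The calls of these 4 each ended without at least 1 of libraries 3 and 4, with adjusted p of 0.0916 for Clec2h without library 4 and of 0.1197 for Slc13a2, 0.0924 for Cxcl13 and 0.0747 for Cd300e without library 3. Without library 7 those of Clec2h and Slc13a2 ended too (0.0766 and 0.163), and without library 8 those of Slc13a2 and Cd300e (0.0675 and 0.0609).

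Several large groups held no call in edgeR, where 18.2% of all tested genes had an unadjusted p under 0.05. They were 71 ribosomal protein genes, 73 nuclear genes of oxidative phosphorylation, 41 proteasome genes and 31 lysosome and autophagy genes, with median log2 changes of -0.07, 0.07, 0.03 and -0.10. An unadjusted p under 0.05 was found in 4, 5, 3 and 8 of them, DESeq2 called 0, 0, 0 and 1, and limma-voom called 0 in each. Of 39 interferon response genes (median -0.24) edgeR and limma-voom called 0 and DESeq2 1, with 10 at an unadjusted p under 0.05. On the lower side 17 of the 39 did not overlap, against 22.4% of all tested genes. Of 18 antigen presentation genes (median -0.09) and 18 genes of the H3K4 methyltransferase complexes (median -0.05) the 3 tools called 0, with 3 and 2 at an unadjusted p under 0.05. Of 28 cell cycle genes 1 was called, Mcm6, a subunit of the replication helicase, at 5.67 and 5.24 CPM on chow and 2.90 and 2.77 CPM on HFD, and the call ended without any of the 4 het libraries (adjusted p up to 0.0921).

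**Figure D5:**
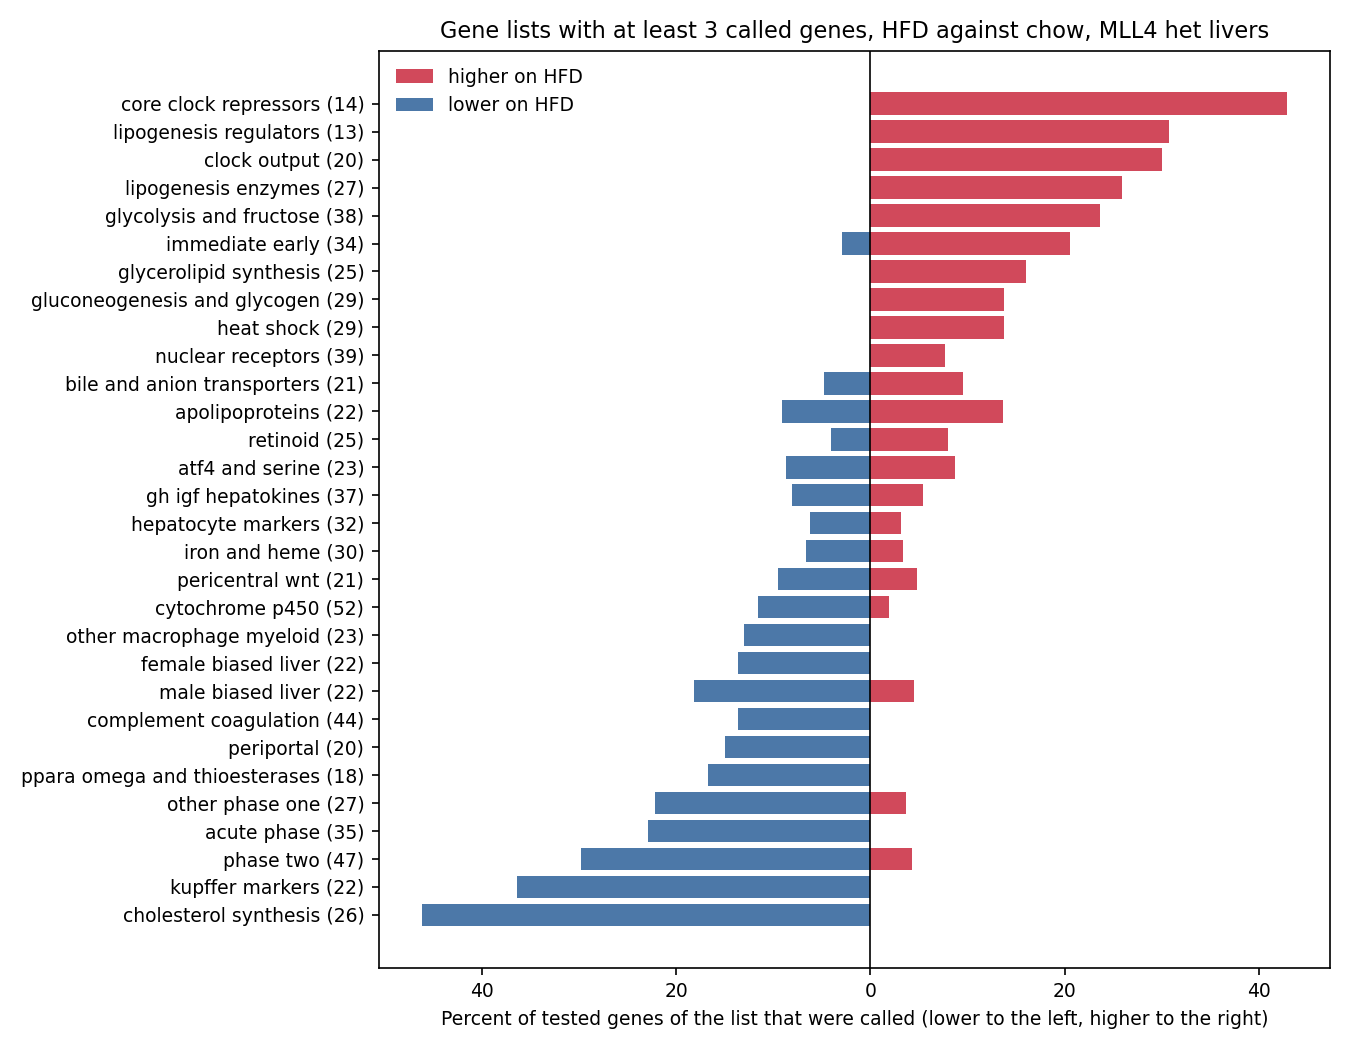
Share of tested genes called higher (red, to the right) or lower (blue, to the left) on HFD in MLL4 het livers, for each gene list with at least 3 called genes; the number tested stands in parentheses. Clock repressors, lipogenesis regulators and clock output have the longest bars on the higher side, and cholesterol synthesis, Kupffer markers and conjugating (phase II) enzymes on the lower side.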

How the data were processed

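The deposited table holds read counts per gene for 8 mouse liver libraries, sequenced on an Illumina HiSeq from TruSeq libraries, per the labels' protocols. The counts are whole numbers, and the authors' tools were CASAVA, TopHat2, HTSeq and DESeq with the mm9 build, per the submitters' processing notes; their versions and settings, strand use included, are not given in the sources used here.

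Libraries were grouped by the genotype and diet in their labels. Rows that passed edgeR's filterByExpr (12593 of 22946) were scaled by TMM and fitted with edgeR 4.0.16 in R 4.3.3, as quasi-likelihood models of 4 group means over the 8 libraries, which share 1 estimate of the spread (4 residual degrees of freedom). SE is the log2 change divided by the root of F, and 95% intervals come from it. P-values were Benjamini-Hochberg adjusted over all tested genes, and called means an adjusted p under 0.05. The interaction was fitted in the same model. Alternatives were DESeq2 1.42.0, limma-voom 3.58.1, other scalings and filters, the 4 libraries alone, and each library left out. Intervals and p-values on counts without molecular identifiers treat reads as molecules. A count of 3 was 0.161 to 0.213 CPM. Libraries of a group differed by 14.9 to 16.3 times the counting noise (chi-square per degree of freedom), so none was another's library deposited again; this does not show that they came from separate animals.

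Gene lists and the naming rule were chosen with earlier results of these data known. The rule names the 15 largest rises and 15 largest falls with a mean of at least 1 CPM, up to 6 called members of each list by p, and a fixed panel; the text gives part of these, and some are not reported here. Figures show further list members. Promoter windows were matched by symbol to the RefSeq table.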

Additional observations from a re-analysis of the deposited data

How the results depend on the processing

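The 380 genes called in MLL4 het livers became 680 with no count filter and 105 with the 4 libraries fitted alone, and 144 to 293 when each library was left out in turn, lowest without wild-type library 2. Genes higher on HFD (193) became 299 with DESeq2, 334 with no count filter, 54 with the 4 libraries alone and 82 to 172 on leaving out a library. Genes lower on HFD (187) became 346 with no count filter, 51 with the 4 libraries alone and 62 to 159 on leaving out a library. The interaction (0 called) gave 29 with DESeq2, 8 with no count filter and 0 to 14 on leaving out a library. The wild-type contrast (578) gave 1351 with its 4 libraries alone and 98 to 896 on leaving out a library. Of the 150 called genes that the naming rule picks, 0 reversed under any alternative, 46 stayed called whichever library was left out and 104 lost the call without at least 1. Among the genes named in the text, reversals were seen for 3 that were not called with all libraries: Kmt2d ran from -0.0707 to 0.2024 on leaving out a library (-0.0707 without library 8, -0.0615 without library 3), Ddx3y from -0.0061 (without library 8) to 0.0632, and Alas1 from -1.58 (without library 8) to 0.84, with -0.0751 without library 4 and -0.36 with limma-voom. The cause was not tested, beyond the fewer libraries that each such fit holds. No paired analysis was possible because the groups compared share no replicate numbers. With 2 libraries a group, 1 library on its own was assumed to vary like the other groups when its partner was left out.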

Other observations

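Of 23 genes of the ATF4 response and serine synthesis 2 were called higher and 2 lower on HFD, with a median log2 change of -0.07. The median of 53 urea cycle and amino acid breakdown genes was 0.06. These small medians held changes in both directions. In edgeR 11 of the 23 and 16 of the 53 had an unadjusted p under 0.05, against 18.2% of all tested genes. Asns, the asparagine synthetase, was at 1.84 and 1.56 CPM on chow and 0.429 and 0.498 CPM on HFD, and wild-type livers went from 5.73 and 7.54 to 0.577 and 0.383 CPM, with an interaction p of 0.00543 before and 0.588 after adjustment. Cth, which makes cysteine from cystathionine, fell from 437 and 468 to 246 and 241 CPM. Atf5, a stress transcription factor, rose from 224 and 241 to 320.4 and 335 CPM. Csad, of taurine synthesis, fell from 179.6 and 131 to 76.0 and 86.5 CPM, 1 of 2 called among 53 urea cycle and amino acid breakdown genes. Oat, the ornithine aminotransferase of pericentral hepatocytes, was the other, at 638 and 667 CPM on chow and 461 and 398 CPM on HFD. Cth stayed called whichever library was left out. The calls of Asns, Atf5, Csad and Oat ended without library 3 (adjusted p 0.105, 0.0599, 0.0592 and 0.0757) and without library 7 (0.145, 0.0550, 0.0950 and 0.0576). Those of Asns, Atf5 and Oat also ended without library 8 (0.0796, 0.0671 and 0.132).

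Alas1, the rate-limiting enzyme of heme synthesis and a clock output gene, was at 374 and 293 CPM on chow and 112 and 598 CPM on HFD, so that the HFD libraries lay on either side of the chow libraries. Without library 8 its log2 change of 0.09 became -1.58 (adjusted p = 0.0136). Smad7, an inhibitor of BMP and TGF-beta signals, rose from 6.73 and 7.62 to 13.5 and 14.6 CPM and stayed called throughout, and Slc25a25, a mitochondrial ATP-Mg carrier, rose from 262 and 262 to 434 and 478 CPM and stayed called as well.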
